A study of Mus musculus with 58 samples.

Results

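The comparison set the control mouse retina 1 h after lights off (ZT13, dusk) against the control retina 1 h after lights on (ZT1, dawn). Its members were chosen by genotype and time in the library labels, which gave 5 libraries at ZT1 and 5 at ZT13, 10 of the 58 libraries of the series. All were retinas of 4-month-old male wild-type littermates from a cross of Ins2Akita heterozygous males with C57BL/6 females, kept under 12 h of light and 12 h of darkness, and no drug or transgene was used. The other libraries were control retinas at 4 further times and retinas of heterozygous Ins2Akita males, in which misfolded insulin 2 leads to hyperglycemia, at the same 6 times. Mice were perfused with buffered saline, single retinas were dissected, and total RNA depleted of ribosomal RNA was sequenced, so that coding and non-coding transcripts were both read. Retinas at ZT13 were dissected under dim red light and each time point had its own collection session, so clock time, illumination and session cannot be told apart.

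The retina holds its own circadian clock, and it is also driven directly by light. Rods carry the signal at night and cones by day, and dopamine released in the light carries a timing signal. Photoreceptors renew part of their outer segments every day, which the neighbouring pigment epithelium takes up. Neurons also answer a change of activity within minutes through the immediate early genes, whose products are mostly transcription factors. Protein folding in the endoplasmic reticulum (ER) is set by another fast programme, in which ER chaperones are transcribed when the folding load grows.

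Of 19120 genes tested, 162 (0.847%) differed between the time points, 91 (0.476%) higher and 71 (0.371%) lower at ZT13. A gene was called with an adjusted p-value under 0.05 in edgeR's quasi-likelihood test with Benjamini-Hochberg adjustment over all genes tested, and every adjusted p-value below comes from that test. The genes higher at dawn included transcription factors of the immediate early class (Fosl2, Nr4a3, Egr3, Npas4), the secreted glycoprotein Stc1 and the ER chaperone Hspa5. The genes higher at dusk included Hif3a, a subunit of the hypoxia-inducible factors, the kinesin Kif4, the cold-inducible RNA-binding protein Cirbp and genes of the pigment epithelium such as Lrat and Rpe65. Of the 162 genes, 77 differed less than 1.5-fold and 36 at least 2-fold. The groups of 5 did not overlap for 123 of them, where 428 of all genes tested (2.24%) had groups that did not overlap, 1.20% with ZT13 higher and 1.04% with ZT13 lower. By annotation, 123 of the 162 were protein-coding, and 39 carried predicted or clone names, 31 of these higher at ZT13.

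**Figure D1:**
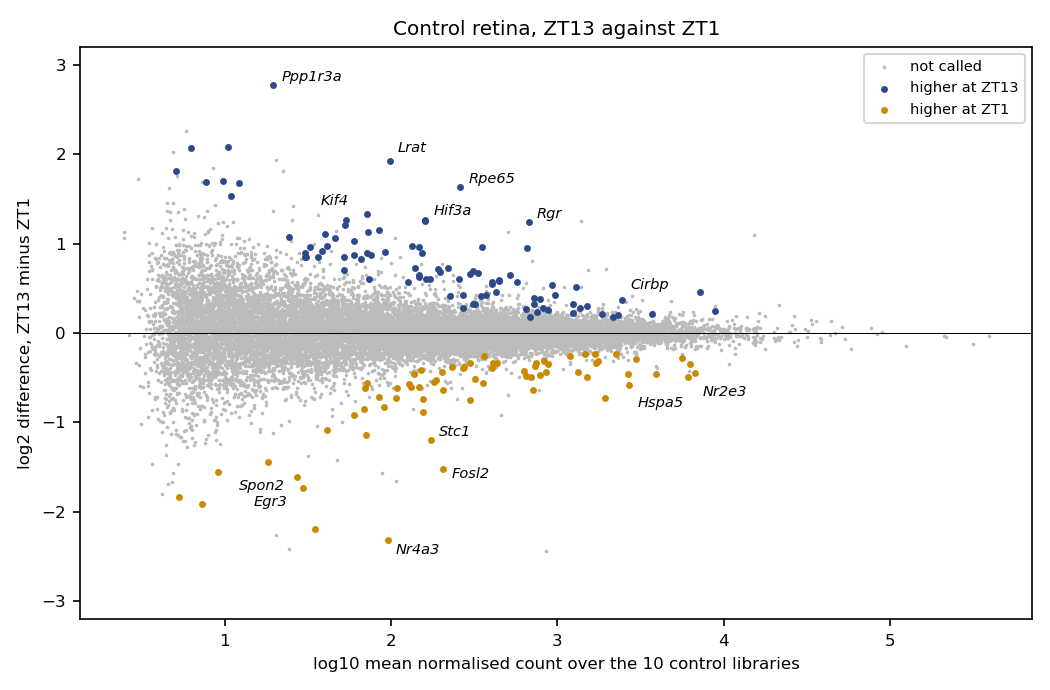
Log2 difference of each tested gene between ZT13 and ZT1 (vertical axis, ZT13 minus ZT1) against the log10 mean normalised count over the 10 control libraries (horizontal axis); blue points are the called genes higher at ZT13, amber points those higher at ZT1 and grey points the genes not called. The lens genes Cryaa, Crybb3, Crybb1 and Bfsp1, at -10.26, -4.60, -4.69 and -3.50, lie below the plotted range.

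The libraries held between 9564862 and 18918015 counted reads, and the ZT13 libraries reached down further (9564862 to 16663555) than the ZT1 libraries (12535762 to 18918015). Rod markers led in every library, summing to 493384 to 691956 normalised counts, so the tissue matched its label. Normalised counts are reads divided by a size factor for each library. ZT1 replicate 6 stood apart by its lens transcripts, with 40918 summed normalised counts of 10 lens genes against 10.01 to 336.4 in the other ZT1 libraries and 18.66 to 24.97 at ZT13, the highest of all 58 libraries. Without that library 32 genes were higher and 24 lower at ZT13, and 53 of the 162 calls were kept. Leaving out ZT1 replicate 2 gave 50 and 45, ZT1 replicate 4 gave 40 and 42, ZT13 replicate 1 gave 50 and 40, ZT13 replicate 2 gave 49 and 31, ZT13 replicate 3 gave 51 and 46, and ZT13 replicate 4 gave 58 and 46. In all 10 of these fits 39 calls stayed past the threshold, 19 higher and 20 lower. Each library was 1 retina, and the p-values measure the spread between libraries within all 12 groups of the series, which shared 1 fit. With the 10 libraries fitted alone, 32 genes were higher and 28 lower.

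Immediate early genes were lower at dusk. Of 22 genes listed, 19 were tested, 7 were called lower (7 of 19, where 0.371% of all genes were) and 0 higher, and 17 of the 19 had a lower estimate at ZT13. Their median log2 difference was -0.61, with 0.00 over all genes tested.

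Fosl2 (chr5:32135801-32157842, plus strand, GRCm38), the AP-1 subunit Fra-2, had the smallest p-value of the comparison. Its normalised counts were 227.0, 301.6, 264.5, 357.9 and 377.7 at ZT1 and 89.9, 98.5, 124.6, 107.0 and 113.8 at ZT13. Every dawn library was above every dusk library, and the level was 2.87-fold lower at ZT13 (log2 -1.52, SE 0.20, adjusted p = 4.38e-06). Nr4a3 (chr4:48045153-48086447, plus strand), an orphan nuclear receptor, gave 115.7, 151.6, 182.5, 195.3 and 153.4 at ZT1 and 34.0, 34.2, 25.8, 22.3 and 42.0 at ZT13. The groups were far apart, with a 5.01-fold lower level at dusk (log2 -2.32, SE 0.35, adjusted p = 6.70e-05).

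Egr3, a zinc-finger factor, gave 49.0, 43.0, 37.0, 49.5 and 51.9 normalised counts at ZT1 and 9.7, 9.2, 13.7, 9.8 and 25.2 at ZT13. ZT13 replicate 5 was higher than the other dusk libraries yet below each dawn library, and the difference was 3.32-fold (log2 -1.73, SE 0.33, adjusted p = 0.00263). Npas4, a factor that neurons make on depolarisation, gave 93.5, 89.1, 88.9, 120.6 and 93.1 at ZT1 and 20.6, 36.8, 71.4, 36.6 and 56.0 at ZT13. Its dusk values spread more widely, again without overlap, and it was 2.21-fold lower (log2 -1.14, SE 0.23, adjusted p = 0.00571). The zinc-finger factor Klf4 fell by 1.08 on the log2 scale (adjusted p = 0.00635) and the orphan receptor Nr4a2 by 0.46 (adjusted p = 0.041), both without overlap. Egr4 fell by 1.44 (adjusted p = 0.0334) with overlapping groups.

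The classic members Fos and Egr1 were not among the called genes. Fos gave 779.9, 715.6, 604.1, 434.5 and 420.4 normalised counts at ZT1 and 279.3, 286.4, 896.4, 379.9 and 988.9 at ZT13 (log2 -0.06, SE 0.36, adjusted p = 0.992). ZT13 replicates 3 and 5 were above all dawn libraries and the other dusk libraries were below all of them. Egr1, an EGR family zinc-finger factor, showed the same 2 libraries apart, with 3145 and 4911 in ZT13 replicates 3 and 5, 389.8, 448.0 and 599.3 in the other dusk libraries and 765.3 to 1777 at dawn (log2 0.70, SE 0.57, adjusted p = 0.831). Nr4a3 in those replicates was 25.8 and 42.0, the Fosl2 values were 124.6 and 113.8, and both stayed below every dawn library. For Fosl2, Egr3 and Npas4 the same replicates were the highest of the dusk libraries, though also below every dawn library.

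**Figure D2:**
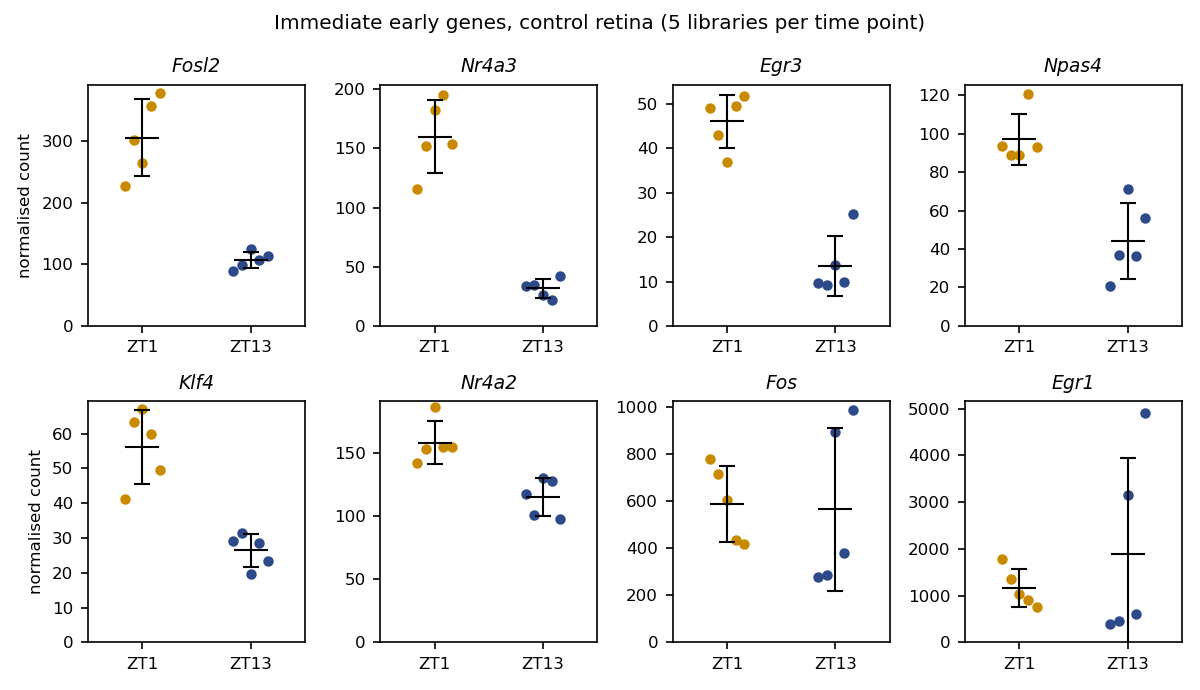
Normalised counts (vertical axes, from 0) of 8 immediate early genes in the 5 ZT1 (amber) and 5 ZT13 (blue) control libraries, with the mean and SD as bars; the SD of Egr1 at ZT13 runs below the axis. Fosl2, Nr4a3, Egr3, Npas4, Klf4 and Nr4a2 separate the time points, while Fos and Egr1 are split among the dusk libraries.

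Fosl2, Egr3, Npas4 and Klf4, with Nr4a3, stayed called whichever library was left out, and 5 of the list were called without ZT1 replicate 6. Over the 6 times of the control day, Fosl2 averaged 305.7 ± 62.9 (SD, n = 5) at ZT1, 147.3 ± 46.1 (n = 6) at ZT5, 242 ± 82 (n = 5) at ZT9 and 106.8 ± 13.4 (n = 5) at ZT13. Its night means at ZT17 and ZT21 were 134.5 and 125.4. Nr4a3 had the same shape, with 159.7 at ZT1, 66.24 at ZT5, 150 at ZT9 and 31.65 at ZT13, so the dawn level was near that of late day and the dusk level near that of the night. The day means were not tested here.

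Several ER folding genes were also lower at dusk. Of 18 members, all tested, 8 were called lower and 0 higher, against 0.371% of all genes lower, and 17 of 18 estimates were negative with a median log2 difference of -0.30. For 6 of the 18 the groups did not overlap, with ZT13 lower, where 1.04% of all genes had that pattern.

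Hspa5 (chr2:34771970-34777547, plus strand), the main ER chaperone BiP, gave 3287, 3367, 3127, 2733 and 3672 normalised counts at ZT1 and 2336, 1946, 2536, 1788 and 2237 at ZT13. The lowest dawn library was above the highest dusk library, and the level was 1.49-fold lower at ZT13 (log2 -0.58, SE 0.11, adjusted p = 0.00258). Xbp1, the transcription factor of the IRE1 branch of the unfolded protein response, gave 1014, 970.3, 927.5, 936.4 and 1048 at ZT1 and 691.0, 663.4, 812.8, 592.2 and 856.4 at ZT13. Its groups did not overlap and the difference was 1.35-fold (log2 -0.44, SE 0.09, adjusted p = 0.00774).

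Sdf2l1, an ER-resident partner of BiP, differed most in the list, with 85.7, 76.6, 73.9, 89.7 and 116.0 at ZT1 and 48.6, 27.6, 56.2, 51.7 and 59.7 at ZT13 (log2 -0.85, SE 0.20, adjusted p = 0.0212). The groups were separate and the highest value was that of ZT1 replicate 6. The ER chaperones Calr (calreticulin, log2 -0.46, adjusted p = 0.039) and Hyou1 (log2 -0.31, adjusted p = 0.011) and the secreted ER factor Manf (log2 -0.39, adjusted p = 0.0449) also had separate groups. The disulfide isomerase Pdia6 (log2 -0.31, adjusted p = 0.0297) and Creld2 (log2 -0.38, adjusted p = 0.0335) were called with overlapping groups. Of the members not called, Hsp90b1, the ER form of HSP90, averaged 4527 at ZT1 and 3447 at ZT13 (adjusted p = 0.0749), and Dnajb9 had the only positive estimate (log2 0.06, adjusted p = 0.975).

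Without ZT1 replicate 6, the lens-rich library, 2 of the 8 ER genes stayed called, Hspa5 (log2 -0.53, adjusted p = 0.0172) and Xbp1 (log2 -0.41, adjusted p = 0.0379), and the estimates of the other 6 stayed negative. The list also lost calls without other libraries, with 5 left without ZT1 replicate 1, 4 without ZT1 replicate 2, 5 without ZT13 replicate 1, 3 without ZT13 replicate 2, 4 without ZT13 replicate 3, 5 without ZT13 replicate 4 and 5 without ZT13 replicate 5. Hspa5 and Xbp1 stayed called in all 10 of these fits. In the control day Hspa5 averaged 3237 ± 344 (SD, n = 5) at ZT1, 2241 at ZT5, 2267 at ZT9, 2169 ± 301 (n = 5) at ZT13, 3587 at ZT17 and 2972 at ZT21. The dusk mean was thus the lowest of the 6, as it was for Fosl2. The highest Hspa5 mean lay in the night, while Fosl2 and Nr4a3 had theirs at ZT1.

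**Figure D3:**
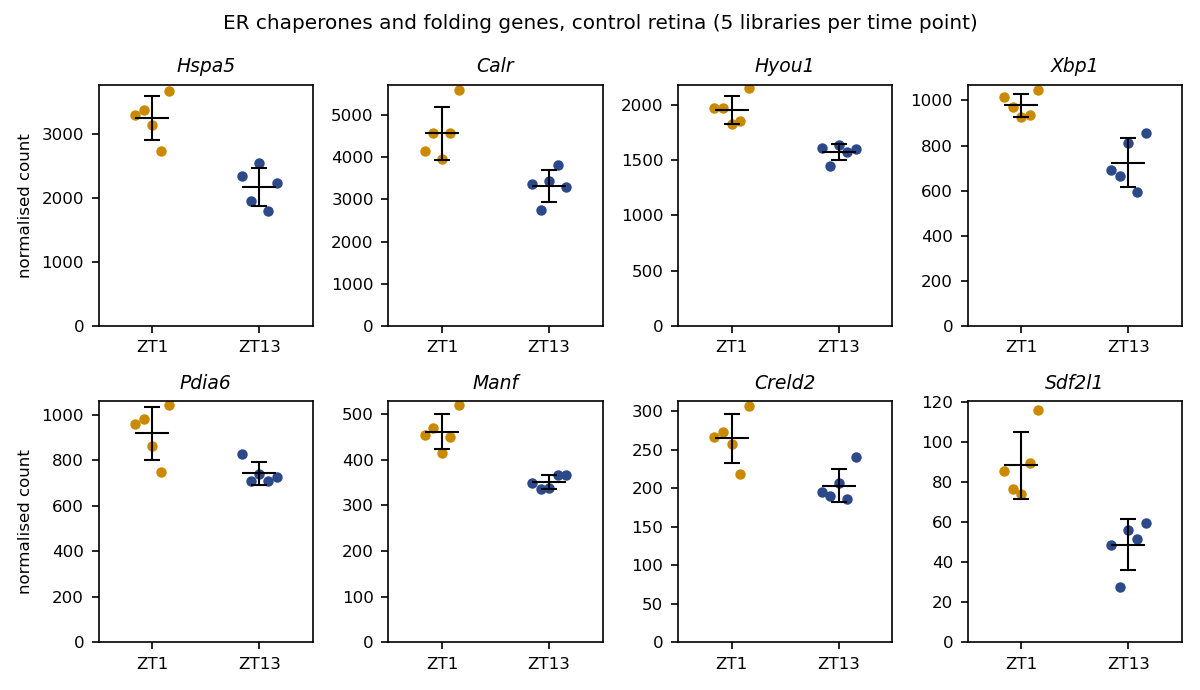
Normalised counts (vertical axes, from 0) of the 8 called ER folding genes in the 5 ZT1 (amber) and 5 ZT13 (blue) control libraries, with the mean and SD as bars. All 8 means are lower at ZT13, and the groups overlap for Pdia6 and Creld2.

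Promoters of the called ER genes were shown because several shared one motif. The 300-base RefSeq windows (GRCm38.p6, 250 bases before to 50 after each start site) were searched on both strands, and 47 of the genes called lower and 54 of those called higher had a window. The ER stress response element, CCAAT and CCACG with 9 bases between them, was chosen for search after the values were seen. It lay in 4 of 6 windows of the called ER genes and in 22 of 15301 windows of all tested genes (0.144%). Among all genes called lower at ZT13 it lay in 4 of 70 windows (5.71%), those of the same ER genes. Among the genes called higher at ZT13 it lay in 0 of 61 windows. Windows of the ER genes not called were not counted apart. These shares therefore cannot tell a trait of ER genes from one of the called genes. The 100-base stretches below are 5′ to 3′ on the gene's strand, and capitals mark the whole match, which is the reverse complement in Calr and Creld2. They are Hspa5 at chr2:34771980-34772079 (plus), Calr at chr8:84847032-84847131 (minus), Creld2 at chr15:88819472-88819571 (plus) and Pdia6 at chr12:17266449-17266548 (plus).
Hspa5: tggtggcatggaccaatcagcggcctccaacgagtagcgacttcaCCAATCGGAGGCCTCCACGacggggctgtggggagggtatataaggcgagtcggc
Calr: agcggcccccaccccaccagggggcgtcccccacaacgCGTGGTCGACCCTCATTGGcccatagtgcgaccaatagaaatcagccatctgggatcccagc
Creld2: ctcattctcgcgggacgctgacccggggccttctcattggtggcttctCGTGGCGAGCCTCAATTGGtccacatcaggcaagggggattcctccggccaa
Pdia6: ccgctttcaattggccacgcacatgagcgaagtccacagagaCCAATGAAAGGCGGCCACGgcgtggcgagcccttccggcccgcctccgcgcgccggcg
The match began 65, 162, 126 and 98 bases before the RefSeq start site, in that order. For Hspa5 the Gencode gene given above starts further upstream, at chr2:34771970, so this stretch lies inside it. A match is a sequence description, and no binding was measured.

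Cytosolic heat shock genes, the chaperones of the cytosol, had 2 of 18 members called lower (0.371% of all genes were) and 0 higher. DESeq2 called 4 of the 18 lower, with 92 lower over all genes. Hsph1, an HSP70 co-chaperone, gave 895.6, 884.4, 896.3, 864.4 and 1051 normalised counts at ZT1 and 629.1, 637.1, 698.9, 588.6 and 756.6 at ZT13 (log2 -0.47, SE 0.10, adjusted p = 0.00896). All dawn libraries were above all dusk libraries. Hspa1b, an inducible HSP70 whose reads are uncertain because Hspa1a is nearly identical, had log2 -0.51 (adjusted p = 0.0485), and Hspa1a had log2 -0.40 (adjusted p = 0.0636). The list median was -0.24 and 17 of 18 estimates were negative. Without ZT1 replicate 6, 0 of the list stayed called (Hsph1 log2 -0.42, adjusted p = 0.0611), and 1 did without ZT1 replicate 2 or 4 or without ZT13 replicate 2, 4 or 5.

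Among the other genes higher at dawn, Stc1 (chr14:69029238-69041804, plus strand), a secreted stanniocalcin, gave 199.2, 244.5, 273.7, 268.2 and 222.0 normalised counts at ZT1 and 111.7, 88.0, 114.0, 94.5 and 118.5 at ZT13. The groups were well apart, 2.29-fold lower at dusk (log2 -1.20, SE 0.16, adjusted p = 1.32e-05). Hkdc1, of the hexokinase family, gave 174.7, 220.3, 183.6, 189.7 and 203.0 at ZT1 and 128.7, 116.9, 141.3, 98.1 and 102.6 at ZT13 (log2 -0.74, SE 0.12, adjusted p = 0.000106). Again no dusk library reached a dawn library.

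Spon2, a matrix protein, was 3.05-fold lower at ZT13 (log2 -1.61, adjusted p = 0.000272). Arid5a, an RNA-binding protein that stabilises inflammatory transcripts, had log2 -0.60 (adjusted p = 0.00142), and Tnfaip3, the ubiquitin-editing enzyme A20 that restrains NF-kB, averaged 7025 ± 199 at ZT1 and 5508 ± 296 at ZT13 (SD, n = 5 each, log2 -0.35, adjusted p = 0.00142). Plat, tissue plasminogen activator, had log2 -0.60 (adjusted p = 0.00238), and Ctgf, a matricellular growth factor, had log2 -0.75 (adjusted p = 0.0142). None of these 5 genes had overlapping groups. Sgk1, a kinase induced by glucocorticoids, was lower with overlapping groups (log2 -0.28, adjusted p = 0.0346) and stayed called in 4 of the 10 fits without a library. It was the only called member of 14 glucocorticoid-induced genes, where 0.371% of all genes were called lower. Of the 14 estimates 10 were higher at ZT13, with a median log2 difference of 0.10. In each direction 4 of the 14 had an unadjusted p under 0.05, where 9.22% of all genes had one in either direction. Cldn5, the tight-junction claudin of endothelium, was the only called member of 7 endothelium and pericyte markers (log2 -0.61, adjusted p = 0.0248), where 0.371% of all genes were called lower. Of the 7 estimates 3 were higher and 4 lower at ZT13, with a median of -0.00. Cldn5 stayed called in 6 of the 10 fits without a library.

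The photoreceptor genes Nr2e3 and Fscn2 were lower at dusk. Nr2e3 (chr9:59942771-59960659, minus strand), the rod nuclear receptor that keeps cone genes silent, gave 6947, 7435, 7429, 7640 and 9179 normalised counts at ZT1 and 5947, 5251, 5585, 5935 and 5581 at ZT13. The groups did not overlap, and ZT1 replicate 6 was the highest (log2 -0.45, SE 0.09, adjusted p = 0.00434, and -0.38, adjusted p = 0.0474, without that replicate). Fscn2, the retinal fascin that bundles actin, gave 1771, 1684, 1633, 1727 and 1959 at ZT1 and 1236, 1138, 1232, 1331 and 1311 at ZT13. Its groups were separate, with a 1.4-fold lower level at ZT13 (log2 -0.49, SE 0.09, adjusted p = 0.00192). Of the 10 rod and the 10 cone phototransduction genes tested, 0 were called, with median log2 differences of -0.06 and -0.10. Unadjusted p-values under 0.05 were found for 0 of the rod and 2 of the cone genes, and DESeq2 called 0 of either. Of 12 genes of photoresponse shut-off and calcium feedback edgeR called 0 and DESeq2 2 higher, with 4 at an unadjusted p under 0.05. Of 5 cone markers edgeR called 0 and DESeq2 1 higher. Over all genes tested, 9.22% had an unadjusted p under 0.05 in edgeR's test, and DESeq2 called 129 higher and 92 lower.

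The core clock genes did not differ past the threshold between the time points. Of the 5 activators, 8 repressors and 6 output factors, 0 were called, with 6 of the 19 at an unadjusted p under 0.05, 4 higher and 2 lower, where 9.22% of all genes were, and DESeq2 called 0 as well. The medians were 0.07, 0.07 and 0.09. Arntl (Bmal1), the partner of Clock, averaged 1883 ± 121 at ZT1 and 1669 ± 78.6 at ZT13 (SD, n = 5 each, log2 -0.17, SE 0.07, adjusted p = 0.34). Ciart, a repressor of the Clock and Bmal1 pair, had the highest estimate of the 3 lists, 136.9 ± 16.5 at ZT1 and 185.9 ± 25.5 at ZT13 (log2 0.45, SE 0.15, adjusted p = 0.16). These times lay on the flanks of its daily course, as Ciart averaged 257.2 ± 34.9 (n = 5) at ZT9 and 105.3 ± 16.7 (n = 4) at ZT21. Dbp, an output factor that binds D-boxes, likewise averaged 2270 at ZT9, with 1675 at ZT1 and 2031 at ZT13 (log2 0.28, SE 0.11, adjusted p = 0.343). Only with trends of GC content and gene length removed did Dbp pass the threshold (log2 0.33, adjusted p = 0.00711). Per2 was close to level, with 712.6 ± 106 and 758.3 ± 145 (log2 0.10, SE 0.13, adjusted p = 0.932).

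Genes that the retinal clock and light are known to drive gave 1 call each way among 6, Adcy1 higher and Nr2e3 lower at ZT13. Over all genes tested, 0.476% were called higher and 0.371% lower. Adcy1, the calcium-stimulated adenylyl cyclase of photoreceptors, gave 8074, 7628, 8239, 8619 and 8205 normalised counts at ZT1 and 10253, 9529, 9786, 9796 and 9244 at ZT13. The groups did not overlap though the difference was 1.19-fold (log2 0.25, SE 0.06, adjusted p = 0.029, and 0.26, adjusted p = 0.0718, without ZT1 replicate 6). Adcy1 stayed called in 3 of the 10 fits without a library, with the highest adjusted p of those fits at 0.0918. Pde4b, which breaks cAMP down, moved the other way, with 1283, 1348, 1347, 1286 and 1239 at ZT1 and 1177, 1105, 1054, 1093 and 994.5 at ZT13. Its groups were separate (log2 -0.26, SE 0.06, adjusted p = 0.0209). Adcy1 and Pde4b were the only called members of 19 tested genes of dopamine, cAMP and melatonin signalling, where 0.847% of all genes were called. DESeq2 called 1 of that list higher and 2 lower, with 129 higher and 92 lower over all genes. At an unadjusted p under 0.05 in edgeR's test, 4 were higher and 3 lower, where 9.22% of all genes passed in either direction. Drd4, the dopamine D4 receptor, spread widely at dusk, from 2402 to 4594, over dawn values of 2240 to 3137 (log2 0.27, SE 0.13, adjusted p = 0.534), and averaged 5023 ± 864 (n = 5) at ZT17.

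An E-box, CACGTG, lay in the promoter window of Adcy1, the only gene called higher at ZT13 with one (1 of 61 windows, 1.64%). Windows of genes called lower held it in 8 of 70 (11.4%), from 7 genes, and all tested windows in 9.32%. The 80 bases at chr11:7063223-7063302 (plus strand, GRCm38.p6) are shown with the E-box in capitals, which began 169 bases before the start site.
Adcy1: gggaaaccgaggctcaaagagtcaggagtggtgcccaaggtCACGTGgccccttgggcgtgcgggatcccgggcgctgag
The D-box (TTA and GTAA with 1 base between them), the cAMP response element (TGACG directly before TCA), the ROR and REV-ERB element (AANT directly before AGGTCA) and the heat shock element (GAA, TTC and GAA with 2 bases between each) lay in 1, 0, 1 and 0 windows of the genes called higher and in 1, 2, 0 and 2 windows of those called lower. Over all tested windows their shares were 1.54%, 2.91%, 0.137% and 0.477%. The 2 heat shock element windows of the genes called lower were overlapping windows of Hsph1 that held the same site.

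Genes higher at dusk were led by Hif3a and Kif4. Hif3a (chr7:17031507-17062427, minus strand) gave 86.8, 74.2, 94.7, 122.4 and 95.4 normalised counts at ZT1 and 176.1, 218.1, 214.2, 289.9 and 233.2 at ZT13. Every dusk library was above every dawn library, 2.4-fold higher (log2 1.27, SE 0.19, adjusted p = 6.70e-05). Kif4 (chrX:100625737-100727214, plus strand), a chromosome-associated kinesin motor, gave 42.3, 26.6, 52.0, 41.1 and 46.5 at ZT1 and 81.4, 110.3, 66.9, 139.1 and 116.6 at ZT13. The groups were separate, with a 2.52-fold difference (log2 1.33, SE 0.20, adjusted p = 6.92e-05).

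The rest of the oxygen-sensing list did not move past the threshold. Hif3a was the only called member of 14 tested HIF1 pathway genes, where 0.476% of all genes were called higher. The median log2 difference of the 14 was 0.01. With Hif3a, 4 of the 14 had an unadjusted p under 0.05, all higher at ZT13, where 9.22% of all genes had one in either direction. Hif1a averaged 8100 at ZT1 and 9023 at ZT13 (adjusted p = 0.488), and its target Vegfa, the endothelial growth factor, 2125 and 1969 (adjusted p = 0.826). Of 25 genes of glycolysis and lactate handling, 0 were called in edgeR's test and 0 by DESeq2, with 2 at an unadjusted p under 0.05. Over the control day, Hif3a averaged 94.7 ± 17.7 (SD, n = 5) at ZT1, 105.1 at ZT5, 203.4 at ZT9, 226.3 ± 41.3 (n = 5) at ZT13, 207.5 at ZT17 and 128 at ZT21. Kif4 instead averaged 166.3 at ZT5 and 201.6 at ZT9, with 102.9 at ZT13 and 41.7 at ZT1.

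Cirbp, which binds RNA and is induced by cold, gave 2270, 2212, 2051, 2048 and 2175 normalised counts at ZT1 and 2879, 2664, 2710, 2859 and 2748 at ZT13. The groups were tight and did not overlap (log2 0.37, SE 0.08, adjusted p = 0.0206). Rbm3, its relative in the list, gave 644.0 to 850.0 at ZT1 and 831.9 to 966.9 at ZT13 and was not called (log2 0.28, SE 0.09, adjusted p = 0.154). Cirbp lost its call in 1 of the 10 fits without a library, with the highest adjusted p of those fits at 0.059.

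Col19a1, a collagen of the basement membrane zone, gave 103.5, 125.0, 88.9, 72.9 and 82.4 at ZT1 and 284.2, 236.5, 255.2, 205.1 and 156.7 at ZT13 (log2 1.25, SE 0.23, adjusted p = 0.00142). Col4a4, a basement membrane collagen IV chain, averaged 407.5 ± 52 at ZT1 and 639.1 ± 34.8 at ZT13 (SD, n = 5 each, log2 0.65, adjusted p = 0.00322), and neither gene had overlapping groups. With the marker covariates described below they had log2 0.90 (adjusted p = 0.178) and 0.62 (adjusted p = 0.0682). Etnppl, the ethanolamine-phosphate lyase of lipid metabolism, averaged 239 ± 25.4 and 383.3 ± 48.2 (log2 0.69, adjusted p = 0.00212), and Ankrd44, a regulatory subunit of protein phosphatase 6, had log2 0.46 (adjusted p = 0.00571).

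Ppp1r3a, a subunit that directs protein phosphatase 1 to glycogen, had the largest estimate among genes higher at ZT13, from low counts. It gave 6.7, 6.3, 5.8, 3.7 and 1.5 at ZT1 and 43.7, 19.7, 89.6, 10.7 and 8.4 at ZT13 (log2 2.77, SE 0.51, adjusted p = 0.00151). The dusk libraries ran over a wide range, and their lowest was above the highest dawn library.

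**Figure D4:**
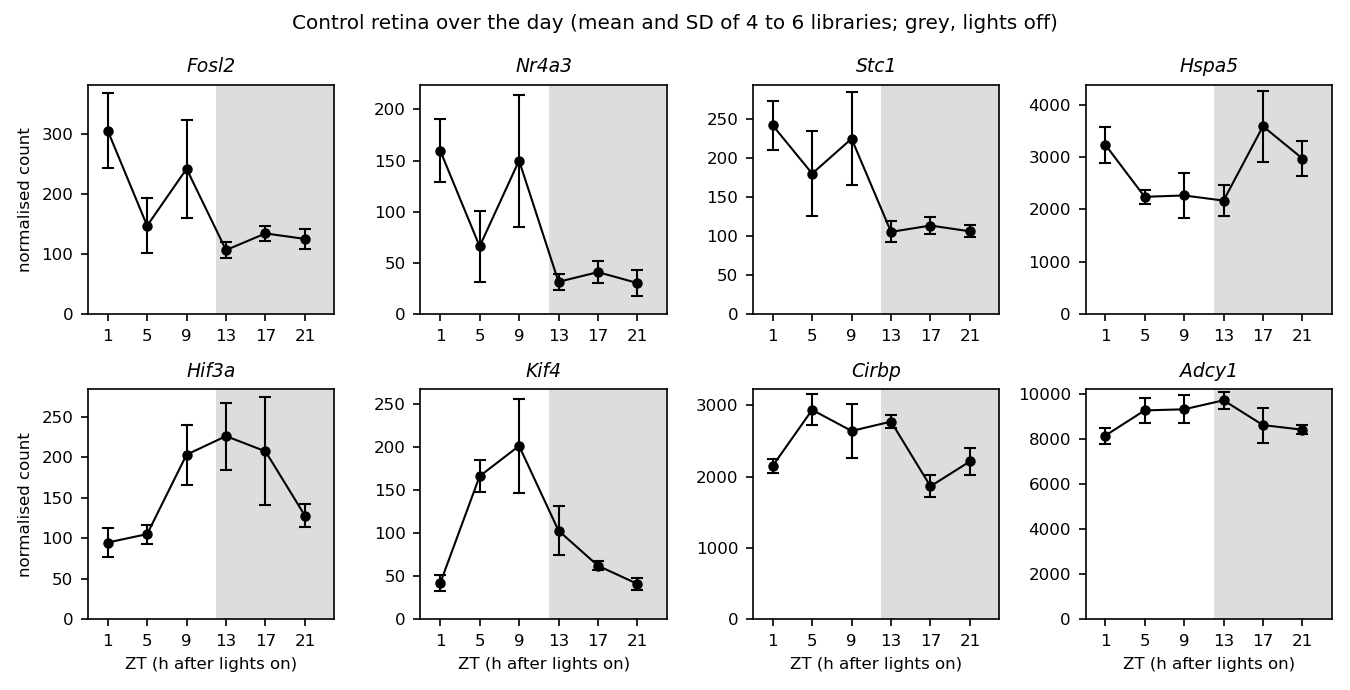
Mean normalised counts (vertical axes, from 0) of 8 called genes in control retina against ZT in hours after lights on (horizontal axes), with the SD of 4 to 6 libraries and the dark phase in grey. Fosl2, Nr4a3 and Stc1 are low from ZT13 to ZT21, Hspa5 has its lowest mean at ZT13, Hif3a and Adcy1 have their highest mean there, and Kif4 is highest at ZT9 and Cirbp at ZT5.

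Of the 91 genes higher at ZT13, 50 had their highest control mean of the day at ZT13, and 14 had it at ZT21, 12 at ZT9, 9 at ZT5 and 6 at ZT17. Of the 71 genes higher at ZT1, 46 had their highest mean at ZT1 and 14 at ZT17, with 6 at ZT9, 3 at ZT5 and 2 at ZT21. Since the call used ZT1 and ZT13, a highest mean at either of these times follows in part from the choice of genes.

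Pigment epithelium transcripts were higher at dusk. Of 8 markers, all tested, 3 were called higher (3 of 8, where 0.476% of all genes were) and all 8 estimates were positive, with a median log2 difference of 0.95. Lrat (chr3:82892579-82903973, minus strand), which esterifies retinol in that layer, gave 63.4, 35.2, 25.4, 30.8 and 48.8 normalised counts at ZT1 and 252.6, 105.1, 202.1, 148.1 and 70.0 at ZT13. Its groups did not overlap (log2 1.92, SE 0.32, adjusted p = 0.000327). Rpe65 (chr3:159599175-159625321, plus strand), the isomerase of the visual cycle, gave 235.9, 115.6, 55.4, 65.4 and 160.2 at ZT1 and 676.4, 317.9, 448.2, 404.0 and 125.0 at ZT13. ZT13 replicate 5 lay within the dawn range, and the other dusk libraries were above it (log2 1.63, SE 0.36, adjusted p = 0.0142).

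The opsin-related Rgr (log2 1.24, adjusted p = 0.0261) and the lactate transporter Slc16a8 (log2 1.27, adjusted p = 0.0391), a gene of the same layer that is outside the list, had the same low library. The summed level of the 8 markers was 680.3 to 1847 at ZT1 and 1147 to 4145 at ZT13, lowest at dusk in replicate 5 and highest in replicate 1, and none of the markers was at 0 in all libraries. Best1, a defining channel of the layer, was low throughout (mean 5.337 at ZT1 and 5.756 at ZT13, log2 0.17, adjusted p = 0.977). Pigment epithelium is separated from the retina by dissection, and in bulk tissue more adhering cells and more RNA per cell cannot be told apart. Without ZT13 replicate 1, 1 of the markers was called, without ZT13 replicate 5, 6 were, without ZT1 replicate 1, 5 were, without ZT1 replicate 2, ZT1 replicate 3, ZT13 replicate 3 or ZT13 replicate 4, 2 were, and without ZT1 replicate 4, 1 was. In the diabetic (Ins2Akita) libraries 6 of the 8 were called higher, with a median of 1.59, where 0.894% of all genes were. Of 4 tested choroid and melanocyte markers, 1 had a higher and 3 a lower estimate at ZT13 in the control, and 0 were called. Their median was -0.58 in the control and 0.97 in the diabetic libraries.

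**Figure D5:**
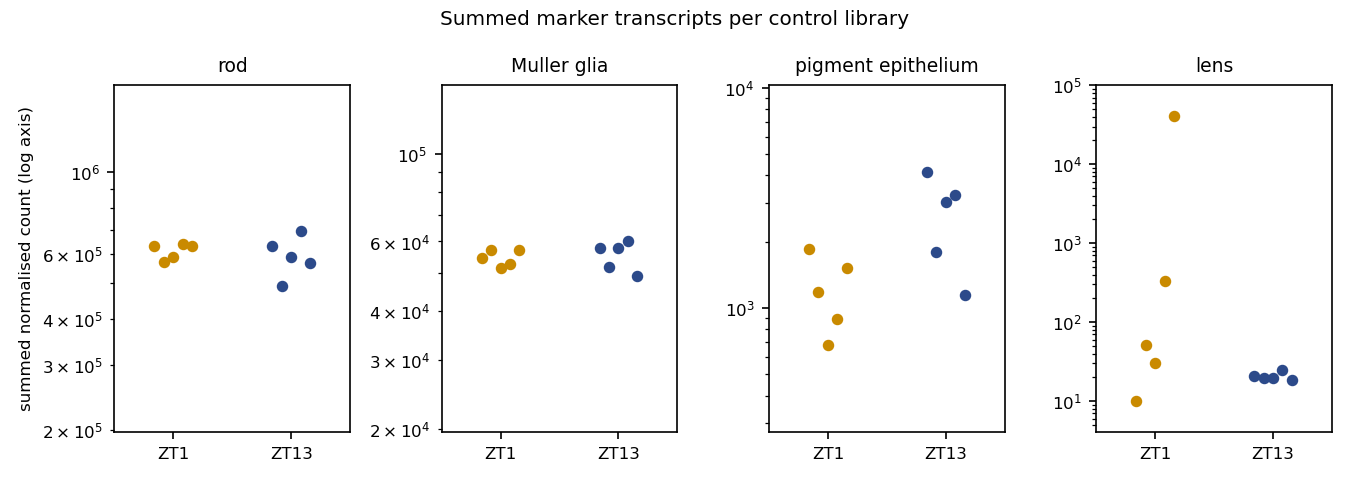
Summed normalised counts (vertical axes, logarithmic) of rod, Muller glia, pigment epithelium and lens markers in the 5 ZT1 (amber) and 5 ZT13 (blue) control libraries. The rod and Muller glia sums overlap between the times, the pigment epithelium sum reaches higher at ZT13, and 1 ZT1 library lies far above the others in the lens sum.

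The pigment epithelium sum was also used to adjust the comparison. In a fit with the log2 sums of the lens and the pigment epithelium markers as covariates, added after the values were seen, the estimates of Rpe65, Rgr and Slc16a8 dropped to 0.31, 0.01 and 0.05, and that of Lrat to 0.74 (adjusted p = 0.0682). Rpe65, Rgr and Lrat are themselves part of the pigment epithelium sum, so their drop follows from the construction of the fit. The guidance cue Sema3c went from 1.15 (adjusted p = 0.00304) to 0.45 (adjusted p = 0.578), and Enpp2, autotaxin, from 0.54 (adjusted p = 0.00434) to 0.24 (adjusted p = 0.506). Rdh10, a retinol dehydrogenase, went from 0.32 to 0.08. It was the only called gene of 11 of the visual cycle of photoreceptors and Muller glia, where 0.476% of all genes were called higher. Hif3a, Kif4 and Etnppl higher at dusk, and Fosl2, Nr4a3, Stc1, Hkdc1, Spon2 and Pde4b lower, kept their calls. Because that sum itself differed between the times, part of the time difference falls to the covariate in such a fit. The fit called 10 genes higher and 7 lower, and 149 of the 162 genes had an unadjusted p under 0.05 in it. For Hspa5 the estimate was -0.57 (adjusted p = 0.0523).

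The lens genes Cryaa and Crybb3, crystallins, were called lower at ZT13 by the dawn library that stood apart. Cryaa gave 0.0, 19.5, 5.8, 72.9 and 22769 normalised counts at ZT1 and 0.9 to 9.2 at ZT13 (log2 -10.26, adjusted p = 0.031), and without ZT1 replicate 6 it was -2.80 with an adjusted p of 1. Crybb3 gave 755.4 in that library and 3.6 to 20.6 in all the others (log2 -4.60, adjusted p = 0.0454), and was -0.55 with an adjusted p of 1 without it. The summed levels of blood, cornea and choroid markers were also highest in that library, at 74.01, 193.8 and 988.1.

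Replication histones, which rRNA-depleted libraries read although most lack a poly(A) tail, had 2 of 53 tested members called lower (0.371% of all genes were) and 0 higher, with 47 of 53 estimates negative, as 9301 of all 19120 were, and a median of -0.30. The linker histone Hist1h1c gave 2550, 2471, 2107, 2206 and 2677 at ZT1 and 1741, 1188, 1465, 1472 and 1381 at ZT13 (log2 -0.73, SE 0.16, adjusted p = 0.014), with no overlap. Hist1h4i, a copy of histone H4 whose reads may be shared with other copies, had log2 -0.64 (adjusted p = 0.0418) with overlapping groups. It stayed called in 2 of the 10 fits without a library. Hist1h1c stayed called in 8 of them, and without ZT1 replicate 6 its adjusted p was 0.0571. In the diabetic libraries the median of the list was 0.12.

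Cytosolic ribosomal proteins (77 tested), nuclear respiratory chain subunits (72), proteasome subunits (37), cholesterol synthesis (19) and SR splicing factors with CLK kinases (19) each had 0 called genes in edgeR's test and by DESeq2, with 3, 0, 1, 1 and 1 members at an unadjusted p under 0.05. Over all genes, 9.22% had such a p-value. Their medians lay between -0.07 and 0.04. Negative estimates numbered 68 of 77, 42 of 72, 22 of 37, 6 of 19 and 11 of 19, in that order, as 9301 of all 19120 did. The ribosomal list, with 9 positive estimates, had a median of -0.07 in the control and 0.09 in the diabetic libraries.

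The diabetic retinas, taken from other animals, allowed the same contrast to be read in other libraries, which had entered the filter and the estimate of the spread behind the control calls but not the control means. In 5 diabetic libraries at ZT1 and 4 at ZT13, 268 genes (1.40%) were called, 171 higher (0.894%) and 97 lower (0.507%). Of the 162 control genes, 159 (98.1%) had the same sign in the diabetic contrast, where 62.9% of all tested genes had. Both contrasts called 72 genes with the same sign, 44.4% of the control calls and 26.9% of the diabetic calls, 44 higher and 28 lower. Examples were Fosl2 (diabetic log2 -0.93, adjusted p = 0.00855), Nr4a3 (-2.12, adjusted p = 0.000398), Hif3a (1.06, adjusted p = 0.000739) and Kif4 (1.23, adjusted p = 0.000189). Immediate early genes had 7 of 19 called lower and 0 higher in the diabetic libraries too, with a median of -0.56.

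The difference between the genotypes was tested as an interaction, which called 0 of 19120 genes in edgeR's test and 0 in DESeq2, with 558 (2.92%) at an unadjusted p under 0.05. The smallest adjusted p was 0.999. ER folding genes had 0 called in the diabetic libraries, with a median of -0.16. The interaction of the 8 that were called in the control had unadjusted p-values of 0.0668 to 0.375, so a difference between the genotypes was not shown. Ctgf had the smallest interaction p (unadjusted 0.000148), with -0.75 in the control and 0.24 in the diabetic retina. It was followed by AU020206, a long non-coding RNA (unadjusted p = 0.000293, -0.47 and 0.69), and Map3k5, the stress kinase ASK1 (unadjusted p = 0.000349, -0.13 and 0.20), neither of which was called in the control. Cirbp had 0.37 in the control and 0.09 in the diabetic retina, with an unadjusted interaction p of 0.0304.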

How the data were processed

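The authors aligned paired-end reads with STAR (version 2.7.4a) to the mouse genome (GRCm38.p5), used Gencode M15 genes for counting with HTSeq (version 0.11.1), and deposited raw, unnormalized counts of 52459 gene symbols for 58 libraries. Whether counting used strand is not given in the sources used here, so reads of overlapping genes, such as Per3 and Camta1, Nr1d1 and Thra, Kif4 and Pdzd11 or Hif3a and 4833404L02Rik, cannot be fully told apart.

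Genes with a median above 4 normalised counts over all libraries were tested (19120). edgeR (version 4.0.16, R 4.3.3) quasi-likelihood models with TMM factors were fitted to all libraries with 1 group per genotype and time (46 residual degrees of freedom), and contrasts were adjusted by the Benjamini-Hochberg method with a threshold of 0.05. Normalised counts used DESeq2 (version 1.42.0) size factors. Coordinates came from Gencode M21 (GRCm38), to which 48082 symbols matched directly and 196 by an older name. On data simulated for this comparison over 19120 genes, 54% of genes changed 1.5-fold, 77% of those changed 2-fold and 0.0476% of the unchanged genes were called. Replicate pairs were checked for duplicates by a chi-square test of their counts, and none of the 20 pairs agreed within sampling noise.

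Named genes were the 10 of smallest p and the 6 of largest change (mean of at least 50 normalised counts) in each direction, without predicted or clone names, the clock genes, up to 4 called genes per functional list, the members of the clock-controlled and cold-inducible lists, and the 3 genes of smallest interaction p. Other genes, such as Fos, Egr1, the remaining called ER and immediate early genes, Rgr and Cldn5, were named after their values were seen. The results of 1 gene are not reported here. The members and lists were chosen with earlier results of these data known. Alternatives were other size factors, filters and tests, fewer libraries in the fit, a replicate block, removal of GC and length trends, each library left out, and the marker covariates.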

Additional observations from a re-analysis of the deposited data

Results flagged for a closer look

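In 7 of 132 groups of 5 libraries of the named genes, 1 library lay apart from the other 4 by Dixon's criterion, where chance gives about 1 in 20. ZT1 replicate 6 accounted for 4 of them. It held 22769 normalised counts of Cryaa against a median of 12.7 in the other ZT1 libraries, and 755.4 of Crybb3 against 6.4, both lens crystallins. Hsph1 was 1051 there against 890.0, and Map3k5 502.8 against 453.9. Npas4 was 120.6 in ZT1 replicate 4 with a median of 91.1 in the others. At ZT13, Egr3 was 25.2 in replicate 5 against 9.8, and the clock repressor Bhlhe40 was 620.1 in replicate 2 against 799.6. The sources of these values were not tested.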

How the results depend on the processing

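Over the alternatives and named genes, 1111 log2 values kept their direction and their side of the threshold, 133 lost a call, 1 gained one (Dbp, 0.33, with GC and length trends removed) and 9 changed sign. With each library left out in turn, 32 to 95 genes were higher and 24 to 67 lower at ZT13, with 2 to 8 ER folding genes, 1 to 6 pigment epithelium markers, 0 to 2 heat shock genes and 5 to 8 immediate early genes called. In these fits 4 genes changed sign, Npas2 (-0.05 to 0.13), Per2 (-0.02 to 0.17), Nr1d1 (-0.07 to 0.13) and Plekhb1 (-0.14 to 0.01). A fit of the 10 libraries alone, which estimates the spread from fewer samples, called 32 higher and 28 lower, with 4 immediate early genes, 2 ER genes, 1 pigment epithelium marker and 1 heat shock gene. With the marker covariates, 10 and 7 genes were called, with 2 immediate early genes and 0 of each of the other lists, and Cryaa (0.38) and Per1 (0.01) changed sign. Called ER genes numbered 5 without a filter on low counts and 4 with the 30 control libraries. Called heat shock genes numbered 1 with DESeq2-type (RLE) size factors, 1 with the 30 control libraries, 1 with GC and length trends removed and 4 with the DESeq2 test. Removing those trends turned Clock to -0.01. DESeq2 called 129 genes higher and 92 lower. The causes of these shifts were not tested. At 9564862 to 18918015 reads, 1.5-fold differences were found in part only.

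A replicate block gave 87 genes higher and 66 lower and kept 118 of the 162 calls. With it, 6 immediate early genes, 6 ER genes, 4 pigment epithelium markers and 2 heat shock genes were called. The labels do not say what the replicate numbers share. Same-numbered libraries correlated at 0.05 to 0.21 over 4 pairs and the other 21 pairs at -0.39 to 0.36 in their deviations from the group means, so the numbers were not taken as a pairing.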
